A study of Mus musculus with 14 samples.

Results

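The response of brown adipose tissue (BAT) to a short cold exposure was measured by RNA sequencing in wild-type (WT) mice, as the difference between 4 libraries of mice at 4 °C and 3 libraries of mice at 30 °C. These 7 libraries of the 14 in the series were chosen by their genotype and treatment labels, without use of a measured value. All animals of the series were male, 10 weeks old and held at 30 °C, a thermoneutral temperature for mice, for 2 weeks. The cold groups were then placed at 4 °C for 6 h. The other 7 libraries came from AdC3KO mice, in which CLSTN3B is knocked out in adipocytes, 3 at 30 °C and 4 at 4 °C. They were used in the estimate of the spread and in the test of whether the cold response differed between the genotypes. Whether a library is 1 animal is not stated, and the p-values thus refer to variation among libraries, which may in part be technical. The driver of the adipocyte knockout, the breeding of the WT mice and the hour of tissue collection are not stated in the labels.

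Brown fat makes heat. In the cold, sympathetic nerves release noradrenaline onto brown adipocytes, where beta-adrenergic receptors raise cyclic AMP, protein kinase A releases fatty acids from lipid droplets, and the fatty acids both fuel the mitochondria and activate UCP1, which lets protons return across the inner membrane without making ATP. The same kinase acts in the nucleus through CREB and its partners, so that a wave of transcription factors is followed by genes of heat production, lipid supply and hormone activation. At thermoneutrality this drive is low and the depot stores lipid.

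Each library held 19.9 M to 25.7 M counts of reads assigned to genes (M, 1e6 counts). Values are counts per M scaled with TMM factors (CPM), and "±" is the SD over 3 libraries at 30 °C or 4 at 4 °C. Each of 15949 genes was compared by the F-test of edgeR's quasi-likelihood fit, with p-values adjusted by the Benjamini-Hochberg method, and a gene that passed 0.05 is said to have risen or fallen. The first principal component of the 7 libraries carried 71.9% of the variance and put all 4 °C libraries on one side. Along the second, with 11.5%, WT library 4 at 4 °C stood at −66.5 and the other 6 between −3.25 and 42.0. Transcripts of skeletal muscle were high in WT library 3 at 30 °C and WT library 2 at 4 °C.

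Most expressed genes differed between the temperatures. Of 15949 genes tested, 4879 (30.6%) rose and 4908 (30.8%) fell at 4 °C, so 61.4% changed. By at least 4-fold, 710 genes (4.45%) rose and 1041 (6.53%) fell, and 158 of the former and 125 of the latter changed by at least 16-fold. The 4 cold libraries did not overlap the 3 thermoneutral ones in 60.3% of tested genes. These shares are the background for every list of genes described here: a list in which about as large a share of members rose and fell did what genes in general did. A value in parentheses after a gene name is its log2 fold change, 4 °C minus 30 °C, unless said otherwise. The lists were drawn up from the known roles of the genes, but with earlier results of these data known. Their shares are thus a description and no independent support. The median log2 fold change of all tested genes was −0.03, with the middle 50% between −0.78 and 0.64. Scaling by upper quartiles instead of TMM shifted every log2 fold change by a median of −0.24 and moved the split to 3640 higher and 6415 lower, so changes smaller than that in either direction depend on the scaling. BAT holds several cell types, and in a bulk sample fewer cells of a type cannot be told apart from less RNA per cell.

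**Figure D1:**
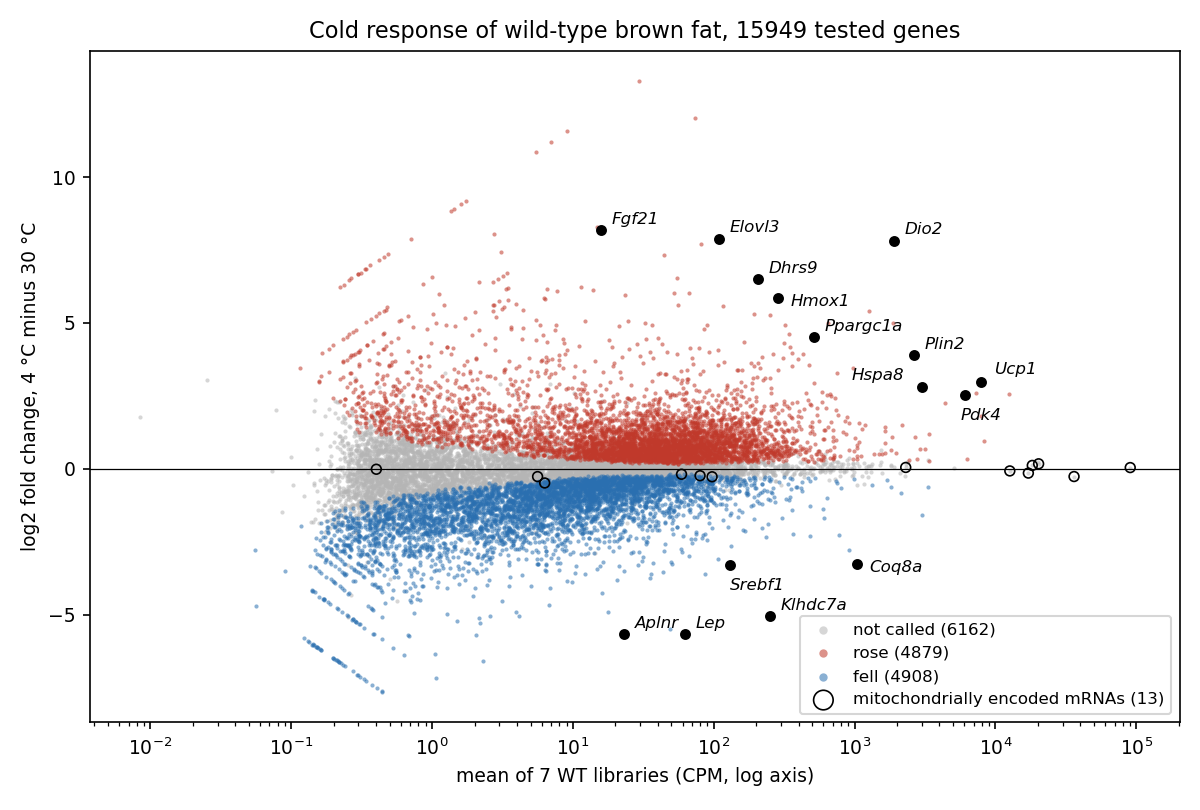
Log2 fold change (4 °C minus 30 °C, WT) against mean expression in CPM on a log axis, 1 point per tested gene, with the genes that rose in red, those that fell in blue and the rest in grey, and named genes labelled. Changes of more than 16-fold occurred in both directions, while the 13 mitochondrially encoded messenger RNAs, ringed in black, lie near 0.

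The labelled tissue was checked against markers of brown adipocytes. Of 14 such genes, Ucp1, Elovl3 and Fabp4 rose, Plin1, Ppara, Cox7a1, Cox8b and Lipe did not pass the test, and 6 fell. The 6 were Cidea (−0.38), Adipoq (−0.64) and the lineage transcription factors Prdm16 (−0.46), Ebf2 (−1.03), Zic1 (−1.27) and Lhx8 (−1.66). Each of the 14 was detected in each of the 7 libraries. Without WT library 2 at 30 °C, where the calls of Cidea, Adipoq and Prdm16 were lost, the number of falls was 3. Prdm16 was lost also without WT library 1 at 4 °C (adjusted p = 0.0541). With upper-quartile scaling 3 of the 14 rose and 9 fell.

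Genes that carry and shape the adrenergic signal changed in both directions. Of 54 tested genes of adrenergic and cyclic AMP signalling, 23 rose and 12 fell, with a median log2 fold change of 0.39. Among the receptors, Adrb3, the main beta-adrenergic receptor of rodent fat, stood at 92.5, 129 and 82.7 CPM at 30 °C and 84.4, 114, 115 and 134 CPM at 4 °C. The groups overlapped and the difference did not pass (log2 fold change 0.14, SE 0.36, adjusted p = 0.763). Adrb1 fell (log2 fold change −0.93, SE 0.21, adjusted p = 0.00136), while the alpha receptor Adra1a rose (log2 fold change 1.24, SE 0.22, adjusted p = 2.98e-04). Adra1d, another alpha receptor, stood at 11.7, 16.7 and 16.0 CPM at 30 °C and 2.48, 1.26, 2.56 and 3.10 CPM at 4 °C. Its groups did not overlap, and it fell (log2 fold change −2.64, SE 0.26, adjusted p = 3.41e-07).

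Behind the receptors the enzymes split by isoform. Adenylyl cyclases make cyclic AMP and phosphodiesterases break it down. The cyclase Adcy3 rose from 48.9 ± 5.09 to 659 ± 59.4 CPM (log2 fold change 3.75, SE 0.16, adjusted p = 5.92e-11), Adcy4 also rose (1.53), and Adcy9 fell (−2.31). The phosphodiesterases Pde3a (2.54), Pde4d (2.31), Pde4b (1.86) and Pde3b (1.60) rose, and Pde4a (−1.45) and Pde8a (−0.40) fell. Of protein kinase A, the regulatory subunit Prkar1a (1.46) rose and the catalytic subunit Prkaca (−1.12) fell, while the regulatory subunit Prkar2b, abundant in fat, did not pass (0.18). The anchor proteins went both ways, Akap12 (3.94) up and Akap1 (−1.12) and Akap5 (−4.92) down. Without WT library 1 at 4 °C the log2 fold change of Akap5 was −5.83. Sik1, a salt-inducible kinase that cyclic AMP induces and that restrains CREB coactivators, stood at 10.2, 8.06 and 13.2 CPM at 30 °C and 148, 170.2, 186 and 208 CPM at 4 °C. The cold libraries all lay far above the thermoneutral ones, 17.0-fold on average (log2 fold change 4.08, SE 0.22, adjusted p = 1.64e-09). Crem, which encodes a feedback repressor of CREB targets, rose (1.91), while Creb1 itself did not pass (0.26).

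Transcription factors of the immediate early class mostly rose. Of 42 tested, 30 rose and 4 fell, with a median of 1.06, against 30.6% rising and 30.8% falling over all genes. Nr4a3, an orphan nuclear receptor, stood at 0.580, 0.359 and 1.06 CPM at 30 °C and 47.2, 206, 147 and 164 CPM at 4 °C. WT library 1 at 4 °C was the lowest of the cold libraries and still far above the 30 °C range (log2 fold change 7.69, SE 0.62, adjusted p = 6.73e-07). Its relative Nr4a1 stood at 54.9, 57.3 and 74.5 CPM at 30 °C and 54.6, 142, 111 and 152 CPM at 4 °C, where the same library lay just under the lowest 30 °C library and the other 3 above the highest. The rise of Nr4a1 passed (log2 fold change 0.88, SE 0.34, adjusted p = 0.0408), but it was lost when any 1 of the 7 libraries other than WT library 1 at 4 °C was left out (adjusted p = 0.0503 to 0.120). Atf3, a stress and cyclic AMP responsive factor, stood at 2.53, 1.92 and 1.44 CPM at 30 °C and 134, 106, 81.8 and 64.5 CPM at 4 °C, a 49.3-fold difference with no overlap (log2 fold change 5.63, SE 0.32, adjusted p = 7.95e-09). Gadd45g, a growth arrest gene, was at 7.74, 5.27 and 12.4 CPM at 30 °C and 325, 344, 329.9 and 336 CPM at 4 °C (log2 fold change 5.29, SE 0.27, adjusted p = 1.33e-09). Irf4, a partner of PGC-1alpha in brown fat, rose (log2 fold change 4.35, SE 0.81, adjusted p = 7.64e-04).

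Members of the AP-1, KLF and C/EBP families followed, with Fos (2.65), Fosl2 (2.08), Klf4 (2.55), Cebpb (2.72) and Cebpd (2.30) rising. Jun did not pass (0.71), although without WT library 1 at 30 °C it did (1.03). Egr1, a standard early response gene, passed at 0.73 (adjusted p = 0.0455) but not without WT library 2 at 30 °C, WT library 3 at 30 °C, WT library 1 at 4 °C or WT library 2 at 4 °C (adjusted p = 0.0951 to 0.158). Nor did Egr1 pass with upper-quartile scaling, no filter on low counts, a filter at 5 CPM or the WT libraries alone. Without both libraries that hold muscle transcripts it did not pass either (adjusted p over these = 0.0562 to 0.254). The falls in this group were Gadd45b (−2.24), Id2 (−1.46), Hes1 (−0.78) and Klf10 (−0.69). Id2 did not pass without both libraries that hold muscle transcripts (adjusted p = 0.0618). Maff, a small MAF factor that pairs with other leucine zipper proteins, stood at 11.9, 6.35 and 6.86 CPM at 30 °C and 114, 95.0, 124 and 129 CPM at 4 °C, with no overlap (log2 fold change 3.79, SE 0.25, adjusted p = 1.47e-08).

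The full palindromic cyclic AMP response element TGACGTCA was searched on both strands in the 250 bases before each RefSeq gene start (GRCm38.p6). It occurred in 1.55% of 32851 promoters, in 2.45% of those of tested genes, in 3.30% of those of genes that rose and in 1.82% of those of genes that fell. Of 33 immediate early genes with a promoter in the table, 2 held it, Btg2 and Maff. The Maff promoter is shown because Maff rose more than Btg2 (0.78). Its element, in capitals, begins 29 bases before the gene start (chr15:79347270-79347519, plus strand, GRCm38.p6).
Maff: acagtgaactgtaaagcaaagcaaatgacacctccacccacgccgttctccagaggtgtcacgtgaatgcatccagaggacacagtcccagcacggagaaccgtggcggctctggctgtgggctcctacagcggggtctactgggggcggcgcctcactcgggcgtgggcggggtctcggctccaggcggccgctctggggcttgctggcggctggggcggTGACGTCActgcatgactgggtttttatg
A match is a description of these letters and says nothing about binding.

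The dual-specificity phosphatases, which switch off MAP kinases, changed in both directions. Of 19, 7 (36.8%) rose and 6 (31.6%) fell, near the 30.6% and 30.8% over all genes. Dusp6, which acts on ERK, went from 15.5 ± 2.32 to 197 ± 14.1 CPM (log2 fold change 3.66, SE 0.18, adjusted p = 2.10e-10), and Dusp1 (3.39), Dusp5 (3.06), Dusp10 (2.89), Dusp16 (2.46) and Dusp8 (2.18) rose as well. Dusp26 (−2.79, and −3.46 without both libraries that hold muscle transcripts), Dusp14 (−2.48), Dusp7 (−2.41) and Dusp19 (−1.93) fell.

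Genes of the thermogenic programme rose more often than they fell, and the largest rises were in Dio2 and Elovl3. Of 39 tested genes, 25 rose and 7 fell (median 0.88). Ucp1 (chr8:83290352-83298452) stood at 1623, 1842 and 1409.7 CPM at 30 °C and 13879, 12803, 13039 and 11021 CPM at 4 °C. The cold libraries were close to one another and averaged 7.81 times the 30 °C level (log2 fold change 2.96, SE 0.18, adjusted p = 1.11e-09). As a share of all gene counts, Ucp1 went from 0.188 ± 0.0210% to 1.15 ± 0.0688%. Per kilobase of exon it was the gene of rank 27 at 30 °C and rank 8 at 4 °C. Dio2, the deiodinase that turns thyroxine into active thyroid hormone inside the cell, started from 15.2, 12.4 and 16.7 CPM and reached 2939, 3730.4, 3802 and 2906 CPM. The groups were 226-fold apart, and Dio2 was one of the 10 genes with the largest gain in CPM although it began as a minor transcript (log2 fold change 7.82, SE 0.22, adjusted p = 9.44e-13).

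Ppargc1a, the coactivator PGC-1alpha that drives mitochondrial and thermogenic genes, stood at 37.1, 35.1 and 43.6 CPM at 30 °C and 674, 882, 1226 and 718 CPM at 4 °C, with WT library 3 highest and no overlap (log2 fold change 4.50, SE 0.27, adjusted p = 4.64e-09). Elovl3, an elongase of saturated fatty acids, stood at 0.787, 0.519 and 1.06 CPM at 30 °C and 255, 199, 179 and 129 CPM at 4 °C, so that it went from a rare transcript to a moderately abundant one (log2 fold change 7.89, SE 0.39, adjusted p = 2.72e-09). Slc25a25, an ATP and phosphate carrier regulated by calcium, rose (log2 fold change 3.62, SE 0.26, adjusted p = 2.40e-08), as did the potassium channel Kcnk3 (1.42) and the fatty acid receptor Ffar4 (2.86, and 2.01 without WT library 4 at 4 °C). The second coactivator Ppargc1b rose less (0.88). The receptors that PGC-1alpha works through went separate ways, with Esrra (0.36) rising and Esrrg (−1.35) falling. With upper-quartile scaling Esrra did not pass (0.12). Nrip1, a corepressor of the thermogenic programme, rose too (1.71). Cidea, Cox7a1 and Cox8b, 3 classical brown fat genes, differed by −0.38, −0.17 and −0.25. Of these, Cidea passed the test (log2 fold change −0.38, SE 0.14, adjusted p = 0.0264). Its fall was lost when WT library 1 or 2 at 30 °C or WT library 2, 3 or 4 at 4 °C was left out (adjusted p = 0.0563 to 0.109). With upper-quartile scaling Cox7a1 (−0.41) and Cox8b (−0.49) passed as falls too.

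**Figure D2:**
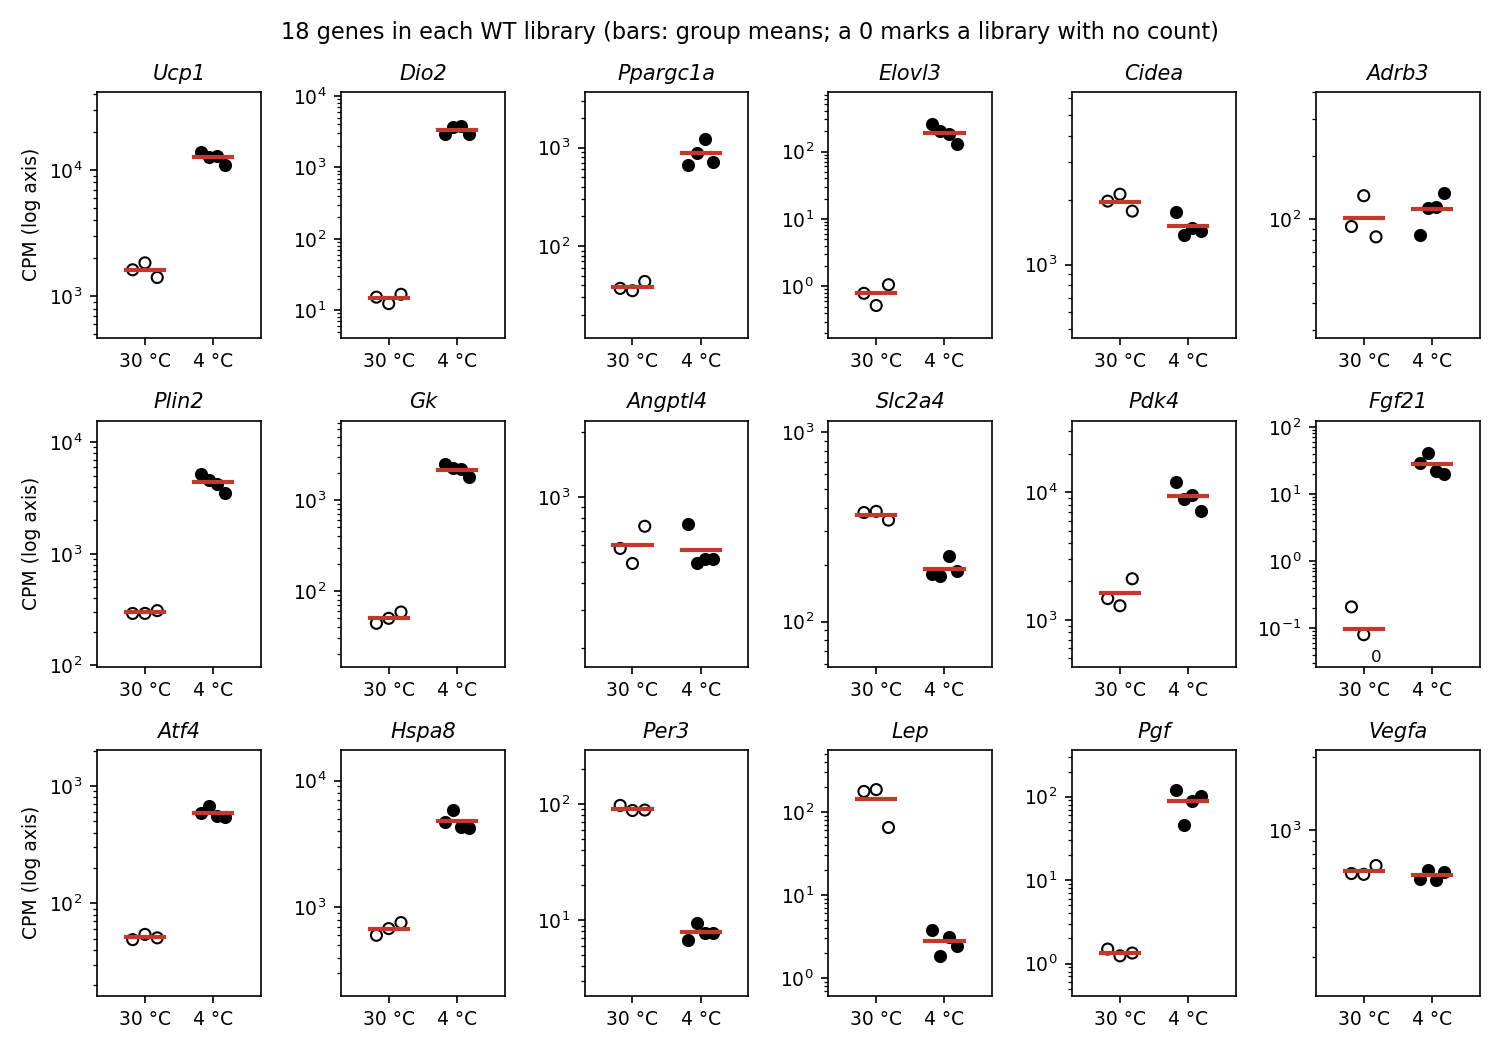
Expression of 18 genes in each WT library, in CPM on a log axis, with 30 °C libraries as open circles, 4 °C libraries as filled circles and the group means as bars. Fgf21, Elovl3, Dio2 and Pgf show the widest separations, and Adrb3, Vegfa and Angptl4 overlap between the temperatures.

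Thyroid hormone genes beyond Dio2 changed as well. Of 14 tested, 10 rose and 4 fell (median 1.91). Slco1a1, a transporter of organic anions, was at 0.0414, 0.0798 and 0.106 CPM at 30 °C and 45.1, 22.9, 17.3 and 17.4 CPM at 4 °C, far apart in every library (log2 fold change 8.28, SE 0.61, adjusted p = 8.79e-08). The risers took in the amino acid transporters that also carry thyroid hormone, Slc7a8 (3.92) and Slc7a5 (3.30), and their heavy-chain partner Slc3a2 (4.17). The nuclear receptor Thra (−1.56) fell. Thrsp, a hormone-responsive gene of lipogenesis, stood at 1379, 1692 and 1201 CPM at 30 °C and 497, 184, 264 and 231 CPM at 4 °C, a fall with no overlap (log2 fold change −2.28, SE 0.29, adjusted p = 1.95e-05).

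Futile cycles that do not need UCP1 showed no common direction. Of 19 tested genes of creatine and calcium cycling, 5 rose and 5 fell (26.3% each, against 30.6% and 30.8% over all genes). Phospho1 (2.78), a phosphatase, Alpl (0.88), linked to phosphocreatine hydrolysis, the calcium pump Atp2a2 (2.08) and the calcium channel Ryr2 (1.94) rose. The creatine synthesis enzyme Gamt (−0.85) and the creatine transporter Slc6a8 (−0.54) fell, and creatine kinase Ckb did not pass (0.04).

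Among genes of the lipid droplet, the coat proteins Plin2 and Plin4 rose, Plin3 fell, and the 3 lipases of fat breakdown did not pass the test. Of 30 tested, 14 rose and 5 fell (median 0.33). This balance depended on the scaling, since with upper-quartile scaling 10 rose and 10 fell. Plin2, a coat protein of lipid droplets, stood at 292, 292 and 309.7 CPM at 30 °C and 5181, 4621, 4259 and 3540.4 CPM at 4 °C. The 30 °C libraries were nearly identical and the cold ones 14.8 times higher on average (log2 fold change 3.88, SE 0.16, adjusted p = 3.66e-11). Abhd5, the activator of the first lipase, rose (log2 fold change 2.06, SE 0.12, adjusted p = 1.05e-09). That lipase, Pnpla2, and the hormone-sensitive lipase Lipe did not pass, at log2 fold changes of −0.23 and −0.35, nor did Mgll (0.19), which removes the last fatty acid. Without WT library 1 at 4 °C, Pnpla2 (−0.35) and Lipe (−0.60) passed as falls, and without WT library 4 at 4 °C Mgll passed as a rise (0.27). Plin1, the droplet gatekeeper of lipolysis, did not pass either (0.19), and Plin3 fell (−2.42). Plin4 (1.44) and Fitm2 (1.76), a protein of droplet formation, rose, as did Hilpda (1.71), an inhibitor of Pnpla2. Clstn3, the locus of the gene knocked out in the other genotype, rose in WT from 207 ± 23.2 to 1109.6 ± 97.4 CPM (log2 fold change 2.42, SE 0.14, adjusted p = 8.49e-10).

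Genes of triglyceride synthesis rose at most steps, and one of the enzymes of the last step fell. Of 25 tested genes, 16 rose and 4 fell (median 0.69). The number of falls was 2 without WT library 1 at 30 °C. Gk, glycerol kinase, stood at 44.0, 50 and 58.7 CPM at 30 °C and 2478, 2233, 2196 and 1788 CPM at 4 °C. The cold libraries were 42.7 times higher on average, with no overlap (log2 fold change 5.42, SE 0.16, adjusted p = 9.44e-13). The acyl-CoA synthetase Acsl1 (2.26), the glycerol-3-phosphate acyltransferases Gpat4 (2.03), Gpam (1.83) and Gpat3 (1.25), and Dgat1 (2.20) rose. Dgat2, which joins the last fatty acid in parallel with Dgat1, stood at 1514, 1862 and 1972 CPM at 30 °C and 316, 201, 292 and 224 CPM at 4 °C. It was the second largest loss in CPM among genes that did not overlap (log2 fold change −2.79, SE 0.16, adjusted p = 6.07e-10). Gpd1l, a glycerol-3-phosphate dehydrogenase, fell as well (−1.98).

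Genes of de novo lipogenesis and its regulators fell more often than they rose. Of 28 tested, 6 rose and 13 fell (median −0.39). Srebf1, the transcription factor SREBP-1, stood at 263, 298 and 243 CPM at 30 °C and 20.7, 19.8, 25.0 and 42.9 CPM at 4 °C, a 9.89-fold drop without overlap (log2 fold change −3.30, SE 0.23, adjusted p = 3.67e-08). The carbohydrate sensor Mlxipl fell (log2 fold change −2.12, SE 0.09, adjusted p = 7.25e-11), as did the acetyl-CoA carboxylase partner Mid1ip1 (−2.16), Acaca (−1.68) and Acly (−1.37). Without WT library 2 at 30 °C the fall of Acly was lost (adjusted p = 0.0585). Fasn, fatty acid synthase, stood at 6495, 6681 and 1502 CPM at 30 °C and 875, 2209, 2384 and 1013 CPM at 4 °C, where WT library 3 at 30 °C lay within the cold range. Its fall (log2 fold change −1.59, SE 0.60, adjusted p = 0.0371) was lost when WT library 1 or 2 at 30 °C or WT library 1 or 4 at 4 °C was left out (adjusted p = 0.0898 to 0.126) and with the WT libraries fitted alone (adjusted p = 0.0645). Scd1, one of the most abundant transcripts of the tissue, overlapped between the groups (0.23), and its relative Scd2 fell (log2 fold change −2.18, SE 0.50, adjusted p = 0.00303). The elongase Elovl6 (0.73), the liver X receptor Nr1h3 (0.88) and the SREBP retention factor Insig2 (0.77) rose.

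Cholesterol synthesis was mixed. Of 30 tested genes, 9 rose and 14 fell. The early enzyme Hmgcs1 (1.63) rose, and Mvk (−1.37), Mvd (−1.35), Fdft1 (−2.56) and Dhcr7 (−2.17), which act later, fell. Lss, in the middle of the pathway, rose (0.85). The scavenger receptor Scarb1 fell (−1.49).

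Genes of fat uptake that rose included those of the capillary wall and the cell surface. Of 25 tested, 11 rose and 5 fell. The direction of the list depended on the scaling, since with upper-quartile scaling 9 rose and 9 fell. The number of falls was 3 without WT library 2 or 3 at 30 °C or WT library 3 at 4 °C and 3 without both libraries that hold muscle transcripts. Lpl, which frees fatty acids from lipoproteins, stood at 2677, 3154 and 3838 CPM at 30 °C and 10477, 12225, 11363 and 11504 CPM at 4 °C, with no overlap (log2 fold change 1.82, SE 0.15, adjusted p = 4.09e-08). Its endothelial anchor Gpihbp1 rose (1.04), as did Cd36 (1.19) and the fatty acid binding proteins Fabp3 (1.36) and Fabp4 (0.95). Angptl4, an inhibitor of Lpl, overlapped between the groups at 580.2, 494 and 735 CPM at 30 °C and 751, 497, 516 and 521 CPM at 4 °C (log2 fold change −0.08, SE 0.17, adjusted p = 0.717). Slc27a2, an acyl-CoA synthetase, rose (log2 fold change 2.06, SE 0.18, adjusted p = 6.88e-08), and Slc27a3 (−1.49) fell. Mfsd2a, a carrier of lysophospholipids, had 2 counts in all 30 °C libraries together and 83.1, 134, 115 and 181 CPM at 4 °C.

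Genes of fatty acid oxidation had no direction that held under both scalings. Of 42 tested, 15 rose and 8 fell (median 0.05), and with upper-quartile scaling 9 rose and 16 fell. Ehhadh, a bifunctional enzyme of peroxisomes, stood at 19.3, 21.0 and 62.2 CPM at 30 °C and 1692, 825, 1206 and 684 CPM at 4 °C, with WT library 3 highest at 30 °C (log2 fold change 5.01, SE 0.59, adjusted p = 2.01e-05). Without that library the log2 fold change was 5.78. The carnitine carrier Slc25a20 (1.03) and Cpt1b (0.87), the carnitine palmitoyltransferase of brown fat and muscle, rose. Among the core mitochondrial enzymes Acadm (0.06), Cpt2 (−0.15), Echs1 (−0.11) and Acaa2 (−0.15) did not pass, and Acadvl rose (0.45) but did not pass with upper-quartile scaling (0.20). Without WT library 1 at 4 °C, Cpt2 (−0.29) and Acaa2 (−0.26) passed as falls. The peroxisomal transporter Abcd2 (−1.28) fell.

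The acyl-CoA thioesterases, which cut fatty acyl-CoA back to the free acid, were a small group with large rises. Of 11 tested, 8 rose and 1 fell (median 1.94). Acot2, in mitochondria, rose from 37.9 ± 2.17 to 596 ± 97.4 CPM (log2 fold change 3.97, SE 0.15, adjusted p = 2.31e-11), and Acot1, its cytosolic neighbour, by a log2 fold change of 4.74. Acot4, in peroxisomes, rose (log2 fold change 3.79, SE 0.33, adjusted p = 4.56e-07). Acot1 and Acot2 are near copies of each other, so reads shared between them may be split or lost in the counting. Acot5 had no count in the 30 °C libraries and stood at 17.7, 14.7, 15.8 and 15.5 CPM at 4 °C, at least 410.1-fold higher when 3 counts over the 30 °C group are taken as the floor. Acot13 fell (−0.71), and Acot11, first described as a brown fat gene, did not pass (−0.09). Of 22 elongases, desaturases and their partner enzymes, 12 rose and 4 fell, with Hacd2 (2.09) and Hsd17b12 (1.39), which complete the elongation cycle, rising beside Elovl3.

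Genes of glucose use that rose included Slc2a1, Pdk4 and Slc16a3, for entry, for the pyruvate switch and for lactate export. Of 37 tested genes, 17 rose and 7 fell (median 0.34), and with upper-quartile scaling 12 rose and 10 fell. Pdk4, the kinase that closes pyruvate dehydrogenase, stood at 1468, 1291 and 2100.4 CPM at 30 °C and 12049, 8856, 9599 and 7138 CPM at 4 °C, no overlap (log2 fold change 2.54, SE 0.22, adjusted p = 5.19e-08). Its relatives Pdk1 (−0.68) and Pdk2 (−0.52) fell. Slc2a1, a glucose transporter independent of insulin, rose (log2 fold change 2.50, SE 0.34, adjusted p = 2.65e-05), while the insulin-dependent Slc2a4 stood at 377, 383 and 344 CPM at 30 °C and 178, 174, 221 and 184 CPM at 4 °C, a fall without overlap (log2 fold change −0.96, SE 0.11, adjusted p = 1.44e-06). Tbc1d4, which regulates that transporter, also fell (−1.51). Hk2 (1.34), Pfkp (1.91), Aldoa (1.09) and Pgk1 (0.99) rose, Pfkm (−1.02) and Pfkfb1 (−2.39) fell, and the abundant Eno1 and Pkm did not pass (0.13 and 0.23). Slc16a3, an exporter of lactate, rose (log2 fold change 3.84, SE 0.67, adjusted p = 3.21e-04), and without WT library 4 at 4 °C its log2 fold change was 3.20.

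Glycogen genes fell more often than they rose. Of 26 tested, 7 rose and 12 fell (median −0.28). The largest changes were in the scaffold subunits that bring a phosphatase to glycogen. Ppp1r3b stood at 203, 269 and 179 CPM at 30 °C and 23.5, 21.0, 26.7 and 29.6 CPM at 4 °C, one of the 15 largest falls among genes of at least 50 CPM (log2 fold change −3.11, SE 0.17, adjusted p = 7.39e-10), and Ppp1r3g rose from 0.0414, 0 and 0.106 CPM to 1.94, 4.45, 4.46 and 7.95 CPM (log2 fold change 6.39, SE 0.96, adjusted p = 5.18e-05). Without WT library 3 at 30 °C the log2 fold change of Ppp1r3g was 7.53. Ppp1r3d (−1.79) and Ppp1r3e (−1.87) fell. The synthase Gys1 did not pass (−0.15), and the phosphorylase Pygb fell (−1.25).

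The first steps of insulin signalling changed in both directions. Of 34 tested, 18 rose and 12 fell, and with upper-quartile scaling 13 rose and 13 fell. Irs2, an adaptor of the insulin receptor, rose (log2 fold change 3.62, SE 0.30, adjusted p = 3.07e-07), with Irs1 (1.20), the receptor Insr (1.35) and the transcription factor Foxo1 (2.05). Pik3r1, the main regulatory subunit of the kinase that Irs proteins recruit, stood at 172, 217 and 85.7 CPM at 30 °C and 41.3, 27.1, 27.4 and 37.7 CPM at 4 °C, a fall with no overlap (log2 fold change −2.25, SE 0.28, adjusted p = 1.48e-05). Irs3 (−3.87), Akt2 (−1.08), Igf1 (−1.64) and Igfbp5 (−2.06) fell.

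Subunits of the respiratory chain differed little. Of 79 nuclear-encoded subunits of the chain and ATP synthase, 8 rose and 1 fell, with a median of −0.03 and the middle 50% between −0.16 and 0.12. The extremes among those that passed were Cycs, cytochrome c, at 0.81, and Ndufv3, the 1 that fell, at −0.36, a call that was lost without WT library 2 at 30 °C (adjusted p = 0.0866). With upper-quartile scaling 1 rose and 32 fell, so this list has no direction that held under both scalings. The number of rises was 3 without WT library 3 at 30 °C, 4 without WT library 1 at 30 °C or WT library 1 at 4 °C, 5 without WT library 3 at 4 °C and 2 without both libraries that hold muscle transcripts, and that of falls 0 without WT library 2 at 30 °C and 3 without WT library 1 at 4 °C. None of 13 mitochondrially encoded subunits passed (median −0.15), and the number of falls was 1 with upper-quartile scaling and 1 without WT library 1 at 4 °C. All mitochondrially encoded genes, ribosomal RNAs included, held 23.7 ± 2.18% of gene counts at 30 °C and 20.5 ± 1.82% at 4 °C, 2 ranges that overlap. Both mitochondrial ribosomal RNAs rose, so this share does not show that of the messenger RNAs alone. In TMM-scaled CPM the 13 subunits summed to a mean of 1.99e+05 at 30 °C and 1.96e+05 at 4 °C. Few genes of the citric acid cycle and its shuttles passed: of 31, 5 rose and 4 fell, and with upper-quartile scaling 5 rose and 9 fell. The largest change was in Got1, the cytosolic aspartate aminotransferase, which stood at 12.7, 12.6 and 15 CPM at 30 °C and 130.2, 133, 128 and 123 CPM at 4 °C (log2 fold change 3.25, SE 0.12, adjusted p = 1.59e-11). Of 77 mitochondrial ribosomal proteins, 22 (28.6%) rose and 18 (23.4%) fell, against 30.6% and 30.8% over all genes. Most changed by little (middle 50% between −0.23 and 0.28), and with upper-quartile scaling 10 rose and 38 fell. The rises of these proteins numbered 13 without both libraries that hold muscle transcripts, and the falls 9 without WT library 2 at 30 °C and 10 without both libraries that hold muscle transcripts.

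The machinery that imports and folds mitochondrial proteins rose more often. Of 45 tested genes, 30 rose and 6 fell (median 0.51). The import receptor Tomm70a (1.73), the small chaperones of the intermembrane space Timm8a1 (2.21), Timm10 (1.56) and Timm9 (1.48), and the oxidative import factor Chchd4 (1.48) were among the largest rises. The matrix chaperone Hspd1 stood at 606, 606 and 662 CPM at 30 °C and 1431, 1393, 1169.8 and 1187 CPM at 4 °C, without overlap (log2 fold change 1.05, SE 0.10, adjusted p = 1.28e-07), and its partner Hspe1 (1.53) and Hspa9 (1.10) rose as well. The proteases Lonp1 (0.62), Afg3l2 (0.63) and Yme1l1 (0.59) rose, and Oma1, a stress-activated protease, fell (−0.87). Of 34 genes of mitochondrial dynamics and quality control, 17 rose and 3 fell, and with upper-quartile scaling 11 rose and 10 fell. The fusion genes Mfn1 (0.86) and Mfn2 (0.76) and the fission factor Mff (0.58) rose, and Opa1 and Dnm1l did not pass (0.16 and 0.20) except without WT library 4 at 4 °C (0.23 and 0.26). Polg2, an accessory subunit of the mitochondrial DNA polymerase, fell (−2.28). Crls1, cardiolipin synthase, went from 167 ± 13.4 to 339.7 ± 63.9 CPM (log2 fold change 1.02, SE 0.14, adjusted p = 8.82e-06).

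**Figure D3:**
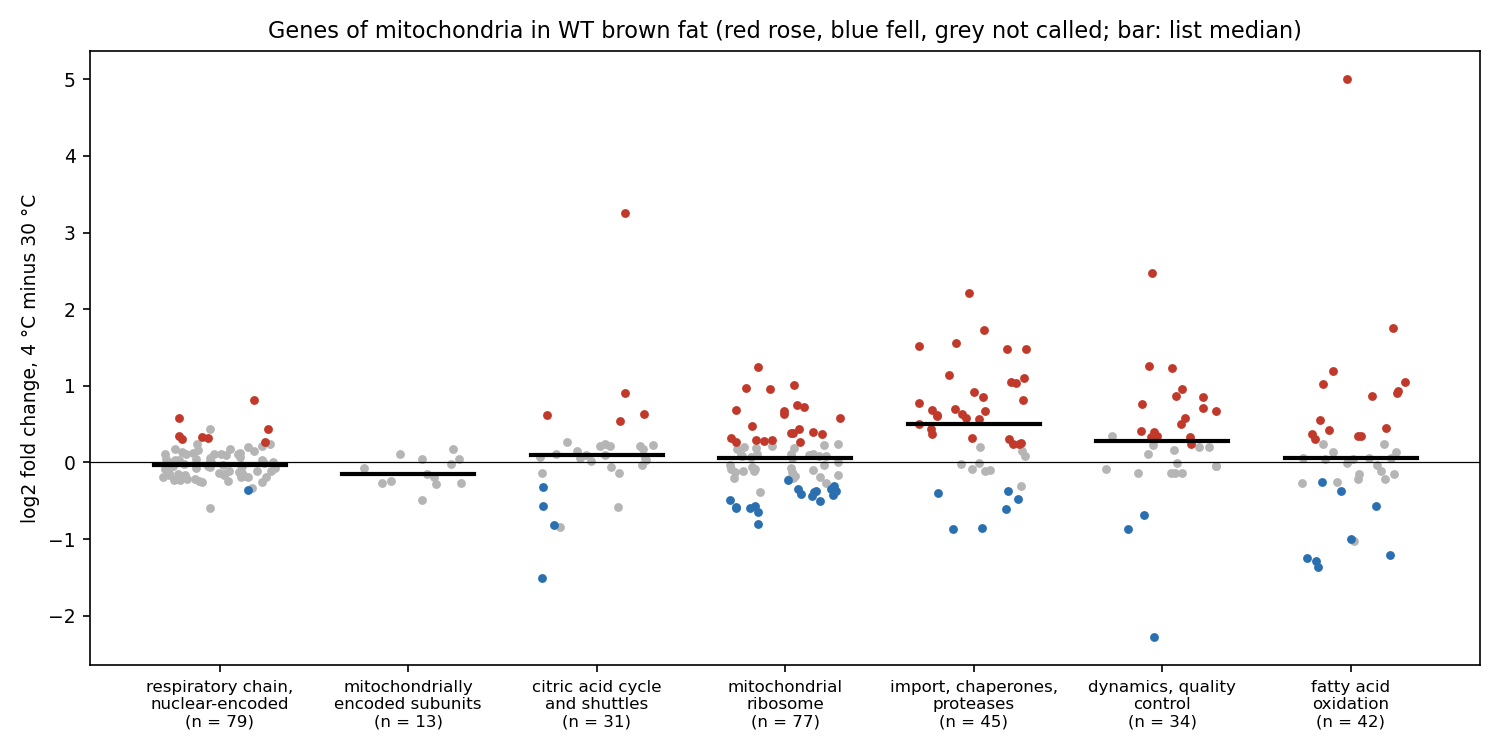
Log2 fold change (4 °C minus 30 °C, WT) of each tested member of 7 lists of mitochondrial genes, 1 point per gene, coloured by call, with the list median as a bar. Respiratory chain, mitochondrially encoded and citric acid cycle genes cluster near 0, and import and chaperone genes lie mostly above it.

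Most chaperones of the cytosol rose. Of 44 tested genes of the heat shock response, 36 rose and 3 fell (median 1.13). Hspa8, the constitutive HSP70, stood at 600.5, 678 and 757 CPM at 30 °C and 4721, 5825, 4278 and 4229.8 CPM at 4 °C, one of the 10 largest gains in CPM (log2 fold change 2.81, SE 0.14, adjusted p = 2.10e-10). The inducible Hspa1a stood at 0.580, 0.878 and 0.422 CPM at 30 °C and 12.2, 31.1, 13.2 and 27.2 CPM at 4 °C (log2 fold change 5.06, SE 0.46, adjusted p = 5.72e-07), and its near-identical neighbour Hspa1b had a similar log2 fold change of 5.05, in reads that the counting may not separate. Hsp90aa1 went from 147 ± 13.0 to 1602 ± 299 CPM (log2 fold change 3.45, SE 0.17, adjusted p = 1.64e-10). Hsph1 (3.46), Bag3 (2.87) and Dnajb1 (2.08) also rose, as did 8 of 8 tested subunits of the CCT chaperonin, by 0.69 (Tcp1) to 1.63 (Cct3). The master regulator Hsf1 passed at 0.33, but not when WT library 1 or 2 at 30 °C or WT library 2 or 3 at 4 °C was left out (adjusted p = 0.0595 to 0.115). With upper-quartile scaling its log2 fold change was 0.08 (adjusted p = 0.552). Nor did Hsf1 pass with no filter on low counts, with a filter at 5 CPM or with a replicate block (adjusted p = 0.0587 to 0.190). Hspb6 (−0.97), a small heat shock protein, Hspa14 (−0.56) and Fkbp4 (−0.40) fell.

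The core of a heat shock element, GAANNTTC, was found in the 250 bases before the start in 20.8% of 48 promoters of these genes, against 6.69% of all 32851 promoters and 5.12% of those of tested genes. Genes that fell also held it (Hspb6, Fkbp4). The promoter of Hspa1a is shown because this gene had one of the largest rises of the group. The core in capitals begins 104 bases before the start (chr17:34972157-34972406, minus strand, GRCm38.p6).
Hspa1a: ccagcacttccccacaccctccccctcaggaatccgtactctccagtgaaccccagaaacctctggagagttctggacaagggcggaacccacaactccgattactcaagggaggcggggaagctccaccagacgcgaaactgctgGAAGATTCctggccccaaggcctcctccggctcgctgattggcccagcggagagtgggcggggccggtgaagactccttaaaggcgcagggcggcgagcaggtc

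The integrated stress response, in which ATF4 induces amino acid transport and synthesis, had the third highest median of the 51 lists, after the thioesterases and the thyroid hormone genes. Of 45 tested genes, 31 rose and 4 fell (median 1.67). Atf4 itself stood at 49.0, 54.3 and 50.7 CPM at 30 °C and 589, 674, 558 and 541 CPM at 4 °C, without overlap (log2 fold change 3.52, SE 0.12, adjusted p = 9.93e-12). Fgf21, a hormone that ATF4 induces, was at 0.207, 0.0798 and 0 CPM at 30 °C and 28.9, 40.8, 21.6 and 19.9 CPM at 4 °C (log2 fold change 8.18, SE 0.56, adjusted p = 3.73e-08). Its fold rests on few counts at 30 °C, and its log2 value was 9.35 when WT library 1 at 30 °C was left out and 7.56 when WT library 3 was. Gdf15, another stress hormone, rose (log2 fold change 6.23, SE 0.50, adjusted p = 1.11e-07). Chac1, an enzyme that breaks down glutathione, stood at 2.65, 1.12 and 1.79 CPM at 30 °C and 26.3, 32.0, 21.6 and 15.3 CPM at 4 °C, with no overlap (log2 fold change 3.68, SE 0.33, adjusted p = 2.16e-07). Mthfd2 (4.48), Sesn2 (4.15), Cth (3.61), Psat1 (2.32) and Asns (1.67) rose with them, and so did the transfer RNA synthetases Nars (1.93), Iars (1.93), Aars (1.76) and Wars (1.69). Not all known targets rose. Ddit3, which encodes CHOP, did not pass (−0.17), nor did Phgdh (−0.32) and Shmt2 (0.17), and Nupr1 (−1.04) fell.

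The core of the amino acid response element, TGATGCAA, was found in 18.6% of 43 promoters of these genes (8 of 37 genes), against 0.792% of all promoters and 0.534% of those of tested genes. Of the 8 genes, Aars, Chac1, Fgf21, Slc7a11, Tars and Vldlr rose, Pycr1 did not pass and Nupr1 fell. The promoters of Fgf21 and Chac1 are shown because these 2 rose most among those of at least 5 CPM in the cold. Capitals mark the core, read on either strand, which begins 139 bases before the start of Fgf21 (chr7:45615491-45615740, minus strand) and 193 bases before that of Chac1 (chr2:119350992-119351241, plus strand, both GRCm38.p6).
Fgf21: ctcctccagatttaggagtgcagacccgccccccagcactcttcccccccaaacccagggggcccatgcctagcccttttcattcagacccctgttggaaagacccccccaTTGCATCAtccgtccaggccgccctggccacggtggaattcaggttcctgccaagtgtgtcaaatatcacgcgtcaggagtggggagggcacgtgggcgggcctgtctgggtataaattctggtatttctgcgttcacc
Chac1: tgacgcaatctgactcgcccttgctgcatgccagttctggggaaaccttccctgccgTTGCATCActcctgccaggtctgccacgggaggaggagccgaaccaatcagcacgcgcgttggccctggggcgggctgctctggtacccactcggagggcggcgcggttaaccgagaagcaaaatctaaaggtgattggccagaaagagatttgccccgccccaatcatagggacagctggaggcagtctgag

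Changes in genes of the endoplasmic reticulum were smaller. Of 42 tested genes of folding and degradation there, 21 rose and 8 fell (median 0.30). The chaperone Hspa5 rose (log2 fold change 1.22, SE 0.10, adjusted p = 3.88e-08), with Dnajb9 (3.38), Canx (1.32) and Atf6 (1.39). Xbp1 and Pdia4 fell (−0.73 and −1.17), and with upper-quartile scaling 14 rose and 15 fell of the 42. Most genes of the proteasome rose. Of 45 tested genes, 37 rose and 2 fell (median 0.63). The falls numbered 1 without WT library 2 or 3 at 30 °C or WT library 3 at 4 °C, 4 without WT library 4 at 4 °C and 1 without both libraries that hold muscle transcripts. Subunits of the regulatory particle such as Psmd11 (1.59) and Psmc4 (1.53) rose, and so did the core subunits Psma1 (1.52) and Psmb5 (0.70). Nfe2l1, the factor that adjusts proteasome supply in brown fat, rose by 0.50.

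Lysosome and autophagy genes rose in 40 of 59 cases and fell in 6 (median 0.54). The adaptor Sqstm1 stood at 202, 189 and 159.7 CPM at 30 °C and 1098, 1022, 824 and 631 CPM at 4 °C, no overlap (log2 fold change 2.29, SE 0.20, adjusted p = 9.83e-08). Gabarapl1 (2.22), Lamp2 (1.55) and subunits of the proton pump such as Atp6v1h (2.14) and Atp6v1a (1.31) rose. Mitf, a regulator of lysosomal genes, fell (−0.60). Of 35 genes of oxidant defence, 16 rose and 5 fell, and with upper-quartile scaling 14 rose and 12 fell. The falls in this list numbered 3 without WT library 2 at 30 °C. Hmox1, heme oxygenase, stood at 8.82, 9.98 and 6.72 CPM at 30 °C and 463, 826, 428 and 253 CPM at 4 °C, 57.9 times higher in the cold (log2 fold change 5.86, SE 0.47, adjusted p = 4.53e-07). Srxn1 (2.61), Gclm (1.04) and the metallothioneins Mt2 (3.31) and Mt1 (1.58) rose. Mt2 varied most, from 2.50 without WT library 1 at 4 °C to 4.64 without WT library 2 at 30 °C. Nqo1, a standard NRF2 target, did not pass (−0.51).

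Ribosome assembly was the list with the largest share of risers. Of 50 tested genes of ribosome biogenesis and the nucleolus, 44 rose and 1 fell (median 1.39). The falls numbered 0 without WT library 2 at 30 °C or WT library 3 at 4 °C and 2 without WT library 1 at 4 °C. Ncl, nucleolin, went from 154 ± 7.80 to 449 ± 73.2 CPM (log2 fold change 1.54, SE 0.12, adjusted p = 1.34e-08), Npm1 from 93.0 ± 9.72 to 288 ± 21.6 CPM (log2 fold change 1.63, SE 0.09, adjusted p = 7.00e-10), and Rrp12 (3.04), Gnl3 (2.64), Nop58 (2.54) and Ddx21 (2.50) rose more. Polr1a, the large subunit of RNA polymerase I, rose (1.59), as did Myc (1.33), a driver of this programme. The ribosomal proteins themselves rose by little, 55 of 81 with a median of 0.42, and with upper-quartile scaling 24. No ribosomal protein fell under either scaling.

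RNA-binding proteins rose more often than they fell, and the list includes Rbm3 and Cirbp, known from cooled cells. Rbm3 stood at 53.1, 56.9 and 48.0 CPM at 30 °C and 131, 88.8, 94.4 and 98.6 CPM at 4 °C, a rise (log2 fold change 0.97, SE 0.15, adjusted p = 3.13e-05), and Cirbp at 48.6, 35.6 and 34.8 CPM at 30 °C and 17.6, 12.0, 12.4 and 11.7 CPM at 4 °C, a fall (log2 fold change −1.56, SE 0.27, adjusted p = 2.15e-04), both without overlap. Of 42 tested genes of this list, 26 rose and 2 fell (with upper-quartile scaling 18 rose and 10 fell), the risers including Hnrnpa1 (0.99) and Hnrnpu (0.90). The falls numbered 1 without WT library 1, 2 or 3 at 30 °C or WT library 1 at 4 °C and 1 without both libraries that hold muscle transcripts. The nuclear RNAs Malat1 and Neat1 did not pass (0.04 and 0.64).

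Almost every clock gene differed, in both directions. Of 22 tested, 12 rose and 9 fell. The activators Arntl (3.83) and Clock (1.85) rose. Arntl stood at 1.95, 2.99 and 2.89 CPM at 30 °C and 29.9, 47.1, 40.1 and 31.5 CPM at 4 °C (log2 fold change 3.83, SE 0.25, adjusted p = 5.86e-09). Per3 stood at 97.3, 88.0 and 88.7 CPM at 30 °C and 6.72, 9.38, 7.69 and 7.79 CPM at 4 °C and Dbp, an output factor, at 67.8, 65.7 and 53.8 CPM at 30 °C and 5.60, 5.55, 8.07 and 8.20 CPM at 4 °C, both falls without overlap. The fall of Per3 was the larger (log2 fold change −3.53, SE 0.16, adjusted p = 9.90e-11), against −3.18 for Dbp. Among repressors Cry1 (2.75), Per1 (2.04) and Per2 (1.63) rose, and Cry2 (−0.47), Nr1d1 (−1.05) and Bhlhe40 (−2.98) fell. Nfil3, which opposes Dbp, rose (3.24). The hour of collection of each group is not given. Temperature and time of day thus cannot be told apart for these genes, or for any other gene with a daily rhythm.

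Secreted factors rose more often than they fell. Of 39 tested secreted factors, 19 rose and 6 fell. Inhbb, a subunit of activin B, stood at 3.64, 3.67 and 3.20 CPM at 30 °C and 43.8, 13.6, 39.5 and 44.4 CPM at 4 °C, with WT library 2 the lowest of the cold group and no overlap (log2 fold change 3.33, SE 0.48, adjusted p = 8.13e-05). Edn1 (2.08), Nmb (2.07), Adm (1.83) and Cxcl14 (1.64) rose too, while Gdf5 (−5.03) and Ptgds (−2.03) fell. Lep, leptin, stood at 176, 185 and 64.8 CPM at 30 °C and 3.77, 1.83, 3.13 and 2.41 CPM at 4 °C, with WT library 3 the lowest at 30 °C and still above every cold library (log2 fold change −5.68, SE 0.53, adjusted p = 3.12e-06). Adiponectin, Adipoq, overlapped between the groups at 771, 1094 and 1177 CPM at 30 °C and 873, 505, 634 and 584 CPM at 4 °C. Its fall passed (log2 fold change −0.64, SE 0.21, adjusted p = 0.0140) and was lost without WT library 2 at 30 °C (adjusted p = 0.0536) or without WT library 3 at 30 °C (adjusted p = 0.0704).

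Vascular signals changed in both directions. Of 29 angiogenic factors and receptors, 12 rose and 11 fell. Vegfa, the best known of them, stood at 663, 658 and 715 CPM at 30 °C and 628, 683, 623 and 675 CPM at 4 °C, 2 overlapping groups (log2 fold change −0.06, SE 0.09, adjusted p = 0.612). Its log2 fold change with upper-quartile scaling was −0.30 (adjusted p = 0.0102). The related ligand Pgf stood at 1.49, 1.24 and 1.34 CPM at 30 °C and 121, 46.1, 89.5 and 102 CPM at 4 °C, a 66.1-fold rise (log2 fold change 6.04, SE 0.43, adjusted p = 1.57e-07). The angiopoietins moved apart, Angpt2 (1.85) up and Angpt1 (−3.82) down, as did apelin and its receptor. Apln rose (1.61), and Aplnr stood at 69.7, 47.1 and 40.7 CPM at 30 °C and 0.648, 1.21, 0.760 and 1.39 CPM at 4 °C, one of the 15 largest falls among genes of at least 50 CPM (log2 fold change −5.68, SE 0.26, adjusted p = 2.19e-10). Kdr (0.90) and Hif1a (1.28) rose, and Tek (−0.99), Tie1 (−1.09) and Epas1 (−0.61) fell.

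Among 58 genes of Wnt, TGF-beta and BMP signalling, 17 (29.3%) rose and 19 (32.8%) fell, near the 30.6% and 30.8% over all genes. The receptors Acvr2b (−2.34), Fzd2 (−2.19), Fzd7 (−1.71) and Tgfbr2 (−1.20) and the ligands Wnt11 (−2.53) and Wnt5a (−1.95) fell. The feedback genes Smad7 (1.44) and Axin2 (1.38) rose. Of 40 genes of the cell cycle, its arrest and proliferation, 3 rose and 7 fell. The number of falls was 13 without WT library 4 at 4 °C. As a mean of log2 (CPM + 0.5), this list stood at 2.36, 2.16 and 2.24 at 30 °C and 1.78, 1.92, 1.93 and 2.75 at 4 °C, so that WT library 4 lay above the 30 °C range and the other 3 cold libraries below it. Mki67 did not pass with that library (0.48) or without it (−0.40). One of the 3 rises among these 40 genes was that of Cdkn1a, which arrests the cycle. It went from 26.8 ± 3.65 to 534 ± 57.7 CPM (log2 fold change 4.31, SE 0.28, adjusted p = 1.67e-08).

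Several of the largest changes lay outside these lists. Dhrs9, a retinol and steroid dehydrogenase, stood at 3.15, 3.11 and 5.42 CPM at 30 °C and 416, 412, 326 and 274 CPM at 4 °C (log2 fold change 6.51, SE 0.28, adjusted p = 2.21e-10). St3gal5, which makes the ganglioside GM3, rose from 4.22 ± 0.874 to 201 ± 36.5 CPM (log2 fold change 5.56, SE 0.21, adjusted p = 3.86e-11), and Noct, a phosphatase of NADPH with a daily rhythm, from 11.0 ± 2.13 to 429 ± 31.3 CPM (log2 fold change 5.28, SE 0.16, adjusted p = 2.48e-12). The kinases Sgk2 (6.53) and Plk3 rose from below 3 CPM. Without WT library 3 at 30 °C, their log2 fold changes were 7.38 and 6.66. Among the falls, Klhdc7a stood at 579, 565 and 539 CPM at 30 °C and 17.2, 11.7, 12.9 and 25.9 CPM at 4 °C, 33.1 times lower in the cold (log2 fold change −5.04, SE 0.35, adjusted p = 1.09e-07). Coq8a, a kinase-like protein needed for coenzyme Q, went from 2134 ± 144 to 222 ± 92.1 CPM (log2 fold change −3.27, SE 0.32, adjusted p = 1.39e-06), the largest loss in CPM without overlap. Slc1a5, a glutamine transporter, fell from 879 ± 43.7 to 179 ± 51.3 CPM (log2 fold change −2.29, SE 0.18, adjusted p = 4.39e-08). Ano1, a chloride channel, fell (−3.19), and Ampd2, an AMP deaminase, as well (−3.61).

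Markers of other cells in the depot were read in the same way. Of 22 endothelial markers 12 rose and 6 fell: Sox17 (3.09), Cldn5 (2.84) and Pecam1 (1.08) rose, and Erg (−1.37), Emcn (−1.04) and Tie1 (−1.09) fell. Of 24 markers of macrophages and antigen-presenting cells, 12 rose and 1 fell (median 1.01). Mrc1 stood at 15.4, 19.2 and 19.9 CPM at 30 °C and 72.4, 29.2, 39.0 and 45.3 CPM at 4 °C (log2 fold change 1.35, SE 0.31, adjusted p = 0.00237), and Cx3cr1 fell (log2 fold change −2.83, SE 0.68, adjusted p = 0.00228), by more without WT library 4 at 4 °C (−3.88). The summed CPM of this list was 476 to 583 at 30 °C and 715 to 2081 at 4 °C, ranges that did not overlap, with WT library 4 highest. The rises in this list numbered 6 without WT library 3 at 30 °C and 7 without both libraries that hold muscle transcripts, 6 with upper-quartile scaling, 6 with no filter on low counts and 7 with a replicate block. Of 30 fibroblast and matrix genes, 11 rose and 7 fell, and with upper-quartile scaling 7 rose and 7 fell. The basement membrane collagen Col4a2 (1.34) rose, Col15a1 (−1.42) and Col6a3 (−0.78) fell, and Col1a1 and Col3a1 did not pass (−0.16 and −0.04). Of 15 Schwann cell and nerve genes, 1 rose and 6 fell, with the neurotrophin receptor Ngfr (−5.20) among the falls.

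The mean levels of interferon response and of lymphocyte genes were highest in WT library 4 at 4 °C, while their calls depended on several libraries. Of 33 tested interferon genes, 3 rose and 0 fell. The rises numbered 0 without WT library 2 or 3 at 30 °C, 1 without WT library 1 at 30 °C or WT library 4 at 4 °C, 5 without WT library 1 at 4 °C and 0 without both libraries that hold muscle transcripts, and 8 with DESeq2. Their summed level was 677 to 769.6 CPM at 30 °C and 301 to 2963 CPM at 4 °C, the highest value in WT library 4. Rsad2, an antiviral enzyme, stood at 33.0, 27.1 and 25.3 CPM at 30 °C and 10.4, 22.2, 10.3 and 326 CPM at 4 °C, so that the other 3 cold libraries lay below the 30 °C range. Without WT library 4 at 4 °C, 1 of these genes rose and 7 fell. The antigen-presenting genes Cd74 (0.94) and H2-Ab1 (1.08), high in the same library, did not pass. Of 17 lymphocyte markers, 0 rose and 3 fell, among them the B cell genes Cd79a (−2.95) and Cd79b (−1.11), each at most 5 CPM in every 30 °C library. The call of Cd79b was lost when any 1 of the 30 °C libraries or WT library 1 or 3 at 4 °C was left out (adjusted p = 0.0632 to 0.106). The part of these cells in the changes of other genes was not tested.

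Skeletal muscle transcripts entered 2 libraries. Of 21 tested genes of this list 0 rose and 1 fell, with a median of −1.90. Myh4, a fast myosin, stood at 0, 0 and 84.4 CPM at 30 °C and 0, 15.5, 0 and 0 CPM at 4 °C, that is, at 0 in 5 libraries. The summed level of the list was 99.6 to 364 CPM at 30 °C and 59.8 to 126 CPM at 4 °C. Without the 2 libraries, 4249 genes rose and 4375 fell. The muscle-type members of other lists, such as Ckm, Atp2a1, Ryr1, Eno3 and Pygm, did not pass the test. With the WT libraries fitted alone, Eno3 (adjusted p = 8.22e-04) and Pygm (adjusted p = 0.00162) passed as falls.

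**Figure D4:**
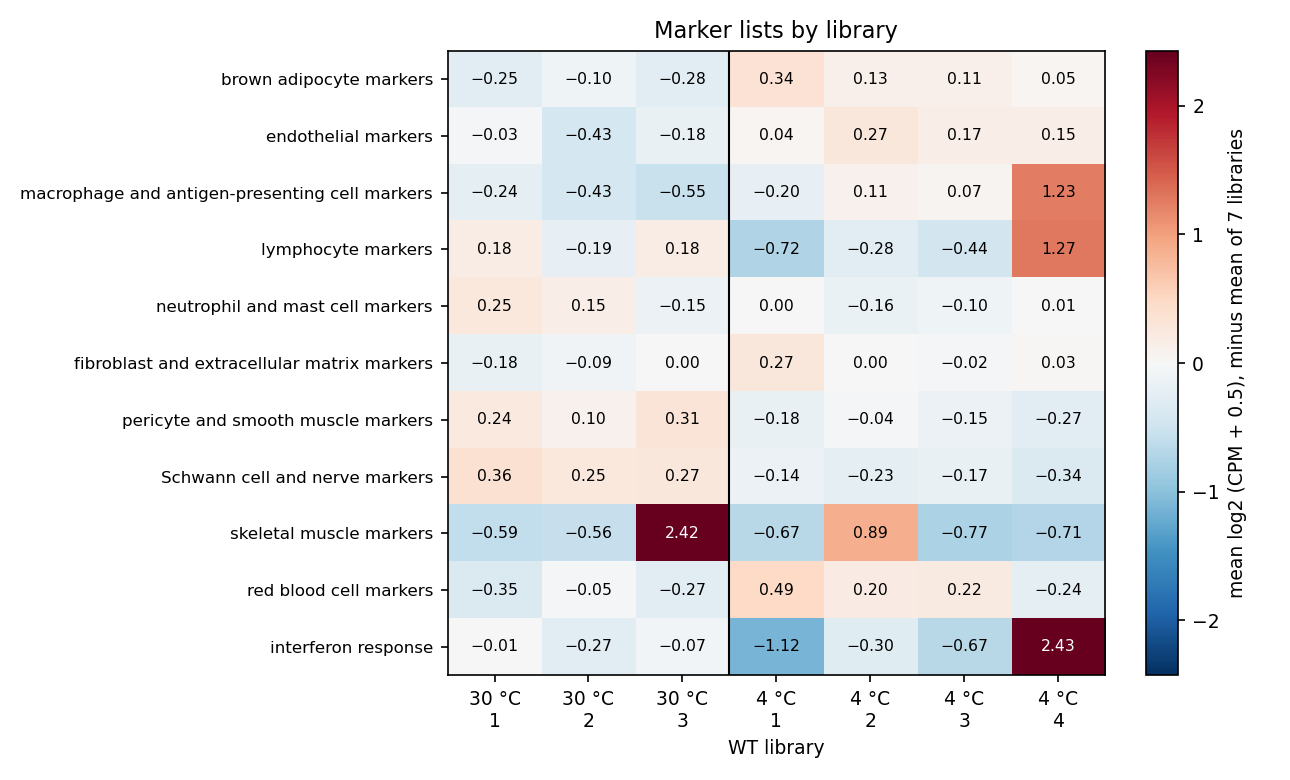
Mean log2 (CPM + 0.5) of the tested members of 10 marker lists and of the interferon genes in each WT library, as the difference from the mean of the 7 libraries. WT library 3 at 30 °C and WT library 2 at 4 °C stand out for skeletal muscle, and WT library 4 at 4 °C for interferon, macrophage and lymphocyte genes.

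**Figure D5:**
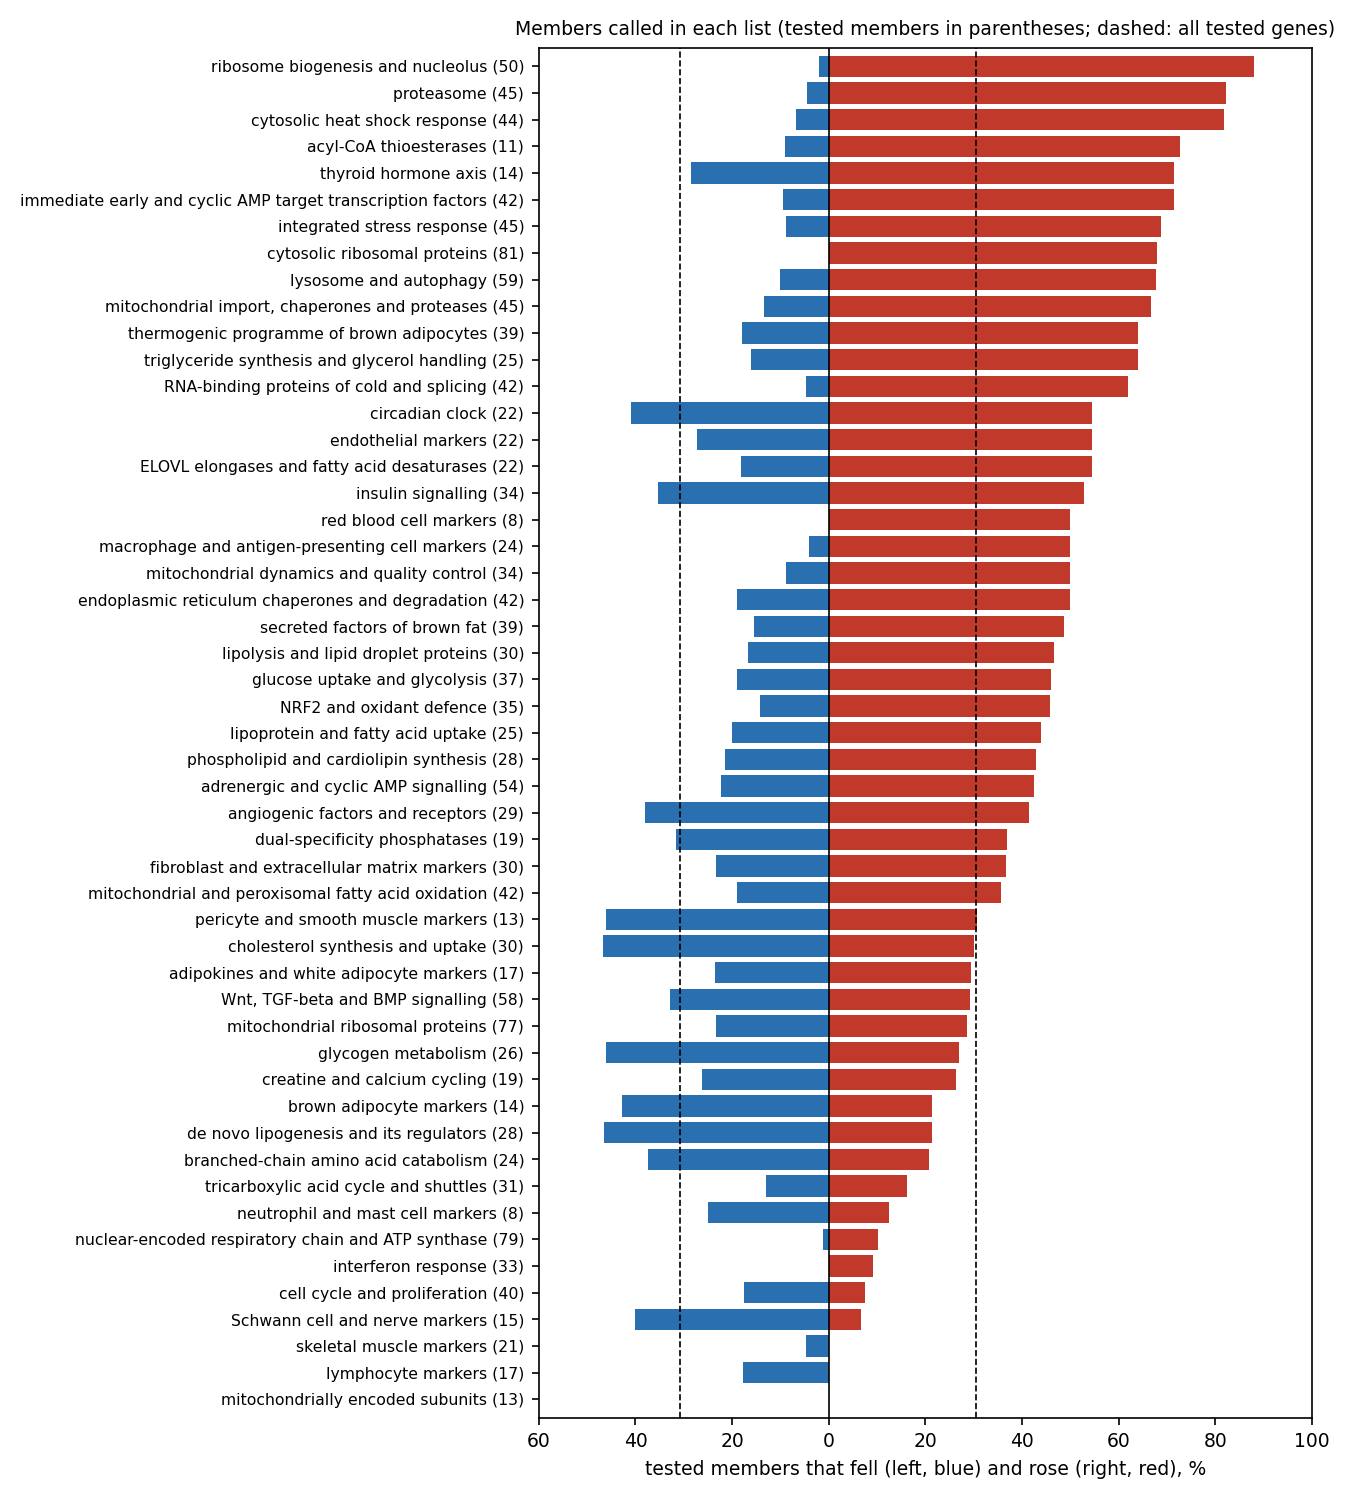
Share of tested members of each of the 51 lists that rose (red, to the right) and fell (blue, to the left) at 4 °C in WT, in percent, with the background shares of all tested genes as dashed lines. Ribosome biogenesis, proteasome and heat shock genes have the largest shares of risers, and the mitochondrially encoded subunits show no call.

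The WT response was set beside that of AdC3KO mice by testing the difference itself. For 0 of 15949 genes (0.00%) did the interaction of genotype and temperature pass in edgeR, with 349 genes at an unadjusted p under 0.05, and DESeq2 called 0, with 454 at an unadjusted p under 0.05. The log2 fold changes of WT and AdC3KO were 2.96 and 3.09 for Ucp1, 7.82 and 7.72 for Dio2, 4.50 and 4.56 for Ppargc1a, and 3.88 and 3.84 for Plin2. For Fgf21 they were 8.18 and 8.34, for Lep −5.68 and −6.98, and for Clstn3 2.42 and 2.05. The differences carried standard errors of 0.22 for Ucp1, 0.23 for Dio2 and 1.21 for Fgf21, so differences of that order were not detectable here, and a p that misses the threshold does not show that the genotypes respond alike.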

How the data were processed

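RNA of mouse brown fat was sequenced in 14 libraries, and the 7 WT libraries are described here. The deposited values are raw counts of reads per Ensembl gene, made by the authors with Trimmomatic, STAR (GRCm38/mm10) and HTSeq per the submitters' processing notes and the series' design text. For these tools the version, annotation and strand setting were not given in any source read here. The deposited table has 55471 gene rows and 5 summary lines that name no gene. The latter entered neither library sizes nor tests. Reads outside any gene made up 5.95% to 8.19% of all counts, summary lines included, in the WT libraries.

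Groups were taken from the sample labels. Symbols were found for 99.41% of identifiers. Counts of all 14 libraries were fitted with edgeR 4.0.16 (R 4.3.3, limma 3.58.1) with 1 mean for each of 4 groups, TMM scaling, a filter for low counts (filterByExpr, minimum count 10), the quasi-likelihood F-test and Benjamini-Hochberg adjustment at 0.05. Fitting all groups together gives 10 residual degrees of freedom, so the WT contrast borrows its spread from AdC3KO libraries too. The script was tested on simulated counts in which a small set of genes changed and the rest did not. In these data 61.4% of genes changed, so that test cannot show whether the scaling suits them. CPM use TMM library sizes, and the SE of a log2 fold change was taken from its F value. Replicates differed by more than counting noise in every pair within a WT group. Alternatives were DESeq2 1.42.0, 2 other scalings, 2 other filters, the WT libraries alone, a replicate block and left-out libraries.

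The 51 gene lists and the genes to name were chosen with earlier results of these data known, and counts of list members carry no test of their own. The rule named 18 core genes, up to 6 called members of each list with the largest change and at least 5 CPM, the 3 most abundant members, the 15 largest rises and falls of at least 50 CPM, the 10 largest gains and losses in CPM and the 8 most abundant genes without a call. Of 364 genes given, 216 come from the rule and 148 were added after their values were seen. Promoters are from RefSeq (GRCm38.p6), where 11302 of 15949 tested genes had one, and gene coordinates from GENCODE M21 (GRCm38/mm10). Other motifs were searched with their own lists. Shares of list promoters, against promoters of tested genes, were 4.29% and 5.45% for CCGGAAGT and 1.43% and 0.26% for TCAAGGTCA (respiratory chain). For CACGTG they were 22.2% and 7.95% (clock), for CCACG 68.6% and 39.7% (endoplasmic reticulum), and for CACCCCAC 4.5% and 2.87% (cholesterol). Sequence reads, and the differences within AdC3KO mice, were not analysed here, and some genes are not reported here.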

Additional observations from a re-analysis of the deposited data

Results flagged for a closer look

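Among the 4 WT libraries at 4 °C, a gene was looked at again when its highest or lowest library lay so far from the nearest other that the gap, as a share of the whole range, exceeded the 95% limit of Dixon's test. Chance alone passes this limit in about 1 in 20 groups. Of 364 genes given in the text, 28 passed it. The 30 °C group, with 3 libraries, was not tested.

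WT library 4 was highest for Cd74 at 369.7 CPM with the others at 81.7 to 122, Ffar4 at 95.8 CPM with the others at 19.6 to 24.4, H2-Ab1 at 255 CPM with the others at 54.9 to 69.8, Id2 at 20.5 CPM with the others at 6.27 to 8.23, and Mki67 at 17.5 CPM with the others at 3.60 to 4.42. WT library 4 was also highest for Rsad2 at 326 CPM with the others at 10.3 to 22.2. WT library 4 was lowest for Dusp6 at 176 CPM with the others at 202 to 207, and Sgk2 at 75.5 CPM with the others at 101 to 103. WT library 1 was highest for Angptl4 at 751 CPM with the others at 497 to 521, Chchd4 at 79.3 CPM with the others at 69.4 to 71.0, Cirbp at 17.6 CPM with the others at 11.7 to 12.4, Crls1 at 435 CPM with the others at 299 to 317, and Cycs at 1461 CPM with the others at 1198 to 1224. WT library 1 was also highest for Igf1 at 16.3 CPM with the others at 7.41 to 8.91, Malat1 at 873 CPM with the others at 634 to 669.9, Nrip1 at 90.2 CPM with the others at 46.5 to 49.9, and Phgdh at 32.8 CPM with the others at 25.9 to 26.7. WT library 1 was lowest for Lclat1 at 45.3 CPM with the others at 70.8 to 73.1. WT library 2 was highest for Atp2a1 at 7.49 CPM with the others at 0.367 to 0.413, Canx at 475 CPM with the others at 430.0 to 436, Ckm at 2.46 CPM with the others at 0, Hes1 at 12.2 CPM with the others at 10.1 to 10.3, and Myh4 at 15.5 CPM with the others at 0. WT library 2 was lowest for Akap1 at 150.2 CPM with the others at 187 to 193, Inhbb at 13.6 CPM with the others at 39.5 to 44.4, and Slc27a2 at 624 CPM with the others at 652 to 654. WT library 3 was highest for Dgat1 at 788 CPM with the others at 722 to 729.6, and Hspb6 at 4.04 CPM with the others at 3.30 to 3.42. Of these, Cd74 and H2-Ab1 serve antigen presentation, Rsad2 is antiviral, Mki67 marks dividing cells, and Atp2a1, Ckm and Myh4 are skeletal muscle genes. No cause of these values was tested.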

How the results depend on the processing

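The counts of genes that rose and fell stayed within 1.5 times of the reported ones under every alternative run. They were 5075 and 5017 with DESeq2, 4274 and 5433 with no filter, 3624 and 3809 among genes of at least 5 CPM, 4562 and 4501 with the WT libraries alone, and 3640 and 6415 with upper-quartile scaling. Leaving out each library in turn gave 4513 to 4791 rises and 4425 to 4936 falls. No gene passed in opposite directions under any alternative. With a replicate block the counts were 4684 and 4753, and the interaction stayed at 0. For same-numbered libraries at 30 °C and 4 °C, deviations from the group means had r of −0.107, −0.127 and −0.0746 across genes. Other pairs gave −0.058 to 0.14. The labels do not say what the numbers mean, and with so few libraries r cannot decide whether they pair animals. Of 364 genes given in the text, 332 kept their call and direction under every alternative, 13 lost the call under at least 1, and 19 without a call gained one. 23 genes without a call changed sign under at least 1, so a sign printed for such a gene is not to be read as a direction. Of 102 counts of list members, 30 moved by more than 1.5 times with upper-quartile scaling, and at most 21 under any other alternative. The cause of lost or gained calls was not tested. About 20 M counts a library leave genes under 1 CPM with few counts, so their fold changes are imprecise, and 3 or 4 libraries a group limit what the interaction can show.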

Other observations

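Both ribosomal RNAs of mitochondria rose while the mitochondrially encoded messenger RNAs did not pass. mt-Rnr1 stood at 1439.6, 2269 and 1864 CPM at 30 °C and 9938, 13872, 9181 and 12221 CPM at 4 °C, with no overlap (log2 fold change 2.61, SE 0.31, adjusted p = 3.76e-06), and mt-Rnr2 at 2609, 3803 and 3369 CPM at 30 °C and 14881, 26912, 16364 and 19205 CPM at 4 °C, again with no overlap (log2 fold change 2.57, SE 0.36, adjusted p = 2.65e-05). Whether the share of such transcripts carried into each library differed was not tested. Small nucleolar RNAs, which guide modification of ribosomal RNA, showed 10 rises and 0 falls among 24 tested, each below 3 CPM in every WT library, with Snora31 (1.53) as an example. The host transcripts of small nucleolar RNAs Snhg1 (2.31) and Gas5 (1.34) rose.

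In several classes of non-coding RNA more genes fell than rose, while over all tested genes 30.6% rose and 30.8% fell. Of 458 long intergenic RNAs 74 rose and 206 fell, and of 90 RNAs from bidirectional promoters 5 rose and 49 fell. Of 534 antisense RNAs 75 rose and 213 fell, and of 261 processed transcripts 36 rose and 119 fell. Processed pseudogenes went the other way, with 74 rises and 40 falls among 374. Antisense RNAs and their partners may share reads, because the strand setting of the counting is not given. Firre, a nuclear long RNA, fell (log2 fold change −1.06, SE 0.12, adjusted p = 1.03e-06). Lncbate1, a long RNA of brown adipocytes, rose from 17.3 ± 0.181 to 67.1 ± 2.22 CPM (log2 fold change 1.95, SE 0.13, adjusted p = 4.41e-09).

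Lists not described in the report were mostly mixed. Of 28 genes of phospholipid synthesis, 12 rose and 6 fell. Choline kinase Chka (2.28) and the acyltransferase Lclat1 (1.65) rose, and Lpcat1 (−1.60) and Taz (−1.17), which remodels cardiolipin, fell. Of 24 genes of branched-chain amino acid breakdown, 5 rose and 9 fell. The mitochondrial carrier Slc25a44 (0.88) and the dehydrogenase subunit Dbt (1.08) rose, while Acad8 (−0.81) and the phosphatase Ppm1k (−0.63) fell. Of 17 adipokines and white adipocyte markers, 5 rose and 4 fell, and the number of falls was 2 without WT library 3 at 30 °C and 1 without both libraries that hold muscle transcripts. Npr3, which clears natriuretic peptides, went from 169 ± 76.9 to 979.7 ± 246 CPM (log2 fold change 2.54, SE 0.32, adjusted p = 1.44e-05). Of 13 pericyte and smooth muscle markers, 4 rose and 6 fell, with Mcam (−2.30), Cspg4 (−2.08) and Notch3 (−1.34) among the falls and Rgs5 not passing (−0.17). Of 8 red blood cell markers, 4 rose and 0 fell, but with upper-quartile scaling 1 rose and 2 fell. The rises numbered 1 without both libraries that hold muscle transcripts, and the falls 1 without WT library 1 at 4 °C. Of 8 neutrophil and mast cell markers, 1 rose and 2 fell, but single libraries decided these counts: the rises numbered 0 without WT library 1, 2 or 3 at 30 °C or WT library 1, 2 or 3 at 4 °C and 0 without both libraries that hold muscle transcripts, and the falls 0 without WT library 1 at 30 °C and 1 without WT library 2 at 30 °C or WT library 2, 3 or 4 at 4 °C.

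Gmpr, guanosine monophosphate reductase, moved from rank 696 to rank 21 among tested genes by CPM per kilobase of exon. It stood at 108, 105 and 90.5 CPM at 30 °C and 2474, 3512, 3641 and 3172 CPM at 4 °C (log2 fold change 4.98, SE 0.20, adjusted p = 2.96e-11). The 10 most abundant genes of each library held 26.8 ± 1.40% of gene counts at 30 °C and 23.6 ± 1.08% at 4 °C.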
